A study of Mus musculus with 10 samples.

Results

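In the posterior wall of the mouse eye, 6 genes of the signals that act on choroidal pigment cells were followed: the receptor genes Kit, Ednrb and Mc1r, the ligand genes Kitl and Edn3, and Mlana, which encodes a melanosome protein. They were chosen by name, and all 6 were among the 26360 genes of the deposited table. Total RNA from retinal pigment epithelium (RPE), choroid and sclera was sequenced in 10 libraries, 1 from the right eye and 1 from the left eye of 5 animals. All animals were wild-type C57BL/6J mice taken at postnatal day 34. Each had been anaesthetised with ketamine and xylazine at postnatal day 24 and fitted with a goggle holding a -20 D lens over a single eye for 10 days, while the fellow eye had no lens. The labels name the side of each eye but not the eye that wore the lens. Right eyes (n = 5) are therefore set against left eyes (n = 5), and which of them is higher carries no meaning for the treatment.

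Choroidal melanocytes come from the neural crest, whereas the RPE is a pigmented epithelium of neural origin. The receptor tyrosine kinase KIT, which binds stem cell factor (the product of Kitl), and the endothelin receptor encoded by Ednrb, which binds endothelin 3 (the product of Edn3), are both needed for melanocyte precursors to survive and spread. The melanocortin 1 receptor, encoded by Mc1r, raises cyclic AMP in skin melanocytes and favours dark pigment. These signals converge on MITF, the pigment cell transcription factor, which binds E-boxes of the type CATGTG.

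Ahead of their values, the stretches before the RefSeq start of 3 of the genes are shown. Edn3 and Ednrb are given as a ligand and its receptor whose fellow-eye differences had the same sign in every animal. The 5 signs of this pair were shared by 8.71% of all genes tested. Mc1r is given as the gene with the lowest level, whose upstream stretch held the MITF-type E-box. Each is the 250 bases before the RefSeq start (GRCm38.p6), read 5′ to 3′ on the gene's strand, with CATGTG or its reverse complement CACATG in capitals.
Edn3, chr2:174760369-174760618, plus strand: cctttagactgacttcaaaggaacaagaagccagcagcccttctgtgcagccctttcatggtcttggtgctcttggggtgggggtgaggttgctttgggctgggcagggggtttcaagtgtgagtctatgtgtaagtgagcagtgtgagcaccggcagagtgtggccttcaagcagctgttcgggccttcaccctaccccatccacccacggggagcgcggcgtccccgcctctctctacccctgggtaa
Ednrb, chr14:103843702-103843951, minus strand: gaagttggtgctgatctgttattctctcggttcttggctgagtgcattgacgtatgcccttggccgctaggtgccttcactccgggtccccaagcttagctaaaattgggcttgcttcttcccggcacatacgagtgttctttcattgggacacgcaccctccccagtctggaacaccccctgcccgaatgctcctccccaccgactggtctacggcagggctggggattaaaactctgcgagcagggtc
Mc1r, chr8:123406832-123407081, plus strand: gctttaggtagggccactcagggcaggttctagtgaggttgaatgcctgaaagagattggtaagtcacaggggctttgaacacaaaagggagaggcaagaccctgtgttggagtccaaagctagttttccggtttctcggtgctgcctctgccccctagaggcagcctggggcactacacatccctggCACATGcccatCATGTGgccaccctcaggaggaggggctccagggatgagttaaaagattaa

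The Mc1r stretch held the MITF-type E-box at 62 bases (CACATG) and at 51 bases (CATGTG) before the start. Of 32851 upstream stretches of the same length, 12.3% held it on either strand. The palindromic E-box CACGTG (6.02% of stretches), the SOX-type motif ACAAAG (16.5%), the GC box GGGCGG (32.7%) and the TATA motif TATAAA (12.4%) were searched on both strands as well. None of these 4, nor the MITF-type E-box, was in the Edn3 or Ednrb stretch, and none of the 4 was in the Mc1r stretch. The Ednrb stretch lies inside the deposited Ednrb gene model (103814625 to 103844402), outside its GENCODE exons. The bases before the start of that longer model were not searched. The stretch of Kitl held the GC box at 143, 45 and 41 bases and the TATA motif at 25 bases before the start, all within the 191 bases of it that GENCODE annotates as Kitl exon. That of Kit held the GC box at 98 bases. Kit had 2 RefSeq promoters, and only the first of them was searched. RefSeq promoters were matched for 5 of the 6 genes, and Mlana was the gene without one.

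The pigmented tissue of the label was present in the libraries, and so were both of its pigmented cell types. Mitf (72.1 to 138 CPM, reads scaled to a fixed library total) and the neural crest factors Sox10 (18.5 to 33.5 CPM) and Pax3 (5.23 to 8.50 CPM) were above 3 reads in 10 of 10 libraries. The summed level of 14 RPE markers, led by Rgr and Ttr, was 6138 to 8233 CPM in right eyes and 5922 to 6651 CPM in left eyes. Rod markers, which would come from retina, summed to 162 to 2041 CPM in right eyes and 245 to 966 CPM in left eyes. The highest rod sum was in the right eye of animal 68. Skeletal muscle markers summed to more, at 3724 to 7762 CPM in right eyes and 2086 to 9681 CPM in left eyes. Markers of surface epithelium (cornea and conjunctiva) summed to 192 to 760 CPM in right eyes and 367 to 1036 CPM in left eyes. The label names neither of these tissues, and their part in the values was not tested. Implied library totals were 66.9 to 94.2 M reads, and 3 reads correspond to 0.0318 to 0.0448 CPM. In bulk tissue, fewer cells of a type and less RNA per cell cannot be told apart, and melanocyte and RPE transcripts of a shared pigment gene cannot be told apart either.

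Per kilobase of exon, the melanosome gene and the endothelin pair stood far above the other members. Mlana averaged 121 ± 14.4 CPM per kb (SD over 10 libraries from 5 animals), above 99.7% of 25737 listed genes with a length. Ednrb averaged 54.5 ± 4.65 CPM per kb and Edn3 28.6 ± 3.78 CPM per kb, so the receptor was above its ligand, with a ligand-to-receptor ratio per kb between 0.463 and 0.584. In the KIT pair the order was the other way round. Kitl averaged 8.87 ± 0.801 CPM per kb and Kit 2.27 ± 0.242 CPM per kb, and the ligand-to-receptor ratio per kb ran from 3.30 (left eye of animal 64) to 4.97 (right eye of animal 66). Mc1r was the lowest, at 0.267 ± 0.0609 CPM per kb. In this order, Mlana, Ednrb, Edn3, Kitl, Kit and Mc1r, the ranges of neighbours did not overlap and the higher gene was higher in 10 of 10 libraries. The order was the same with the longest transcript. With the shortest annotated transcript of each gene, Edn3 (161 CPM per kb) and Kitl (141 CPM per kb) came above Ednrb (87.0 CPM per kb). The ranges of Mlana and Edn3 then overlapped. The ligand-to-receptor ratios also change with the length used. With the longest transcript, Kitl averaged 9.28 and Kit 3.86 CPM per kb, and Edn3 37.8 and Ednrb 56.6 CPM per kb.

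**Figure D1:**
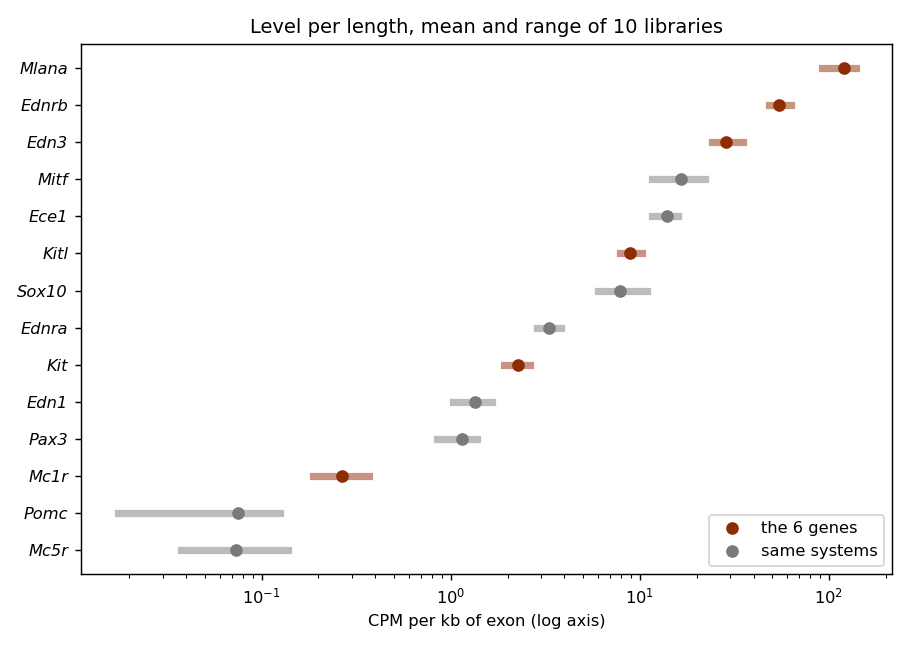
Mean (points) and range (bars) over 10 libraries of the level per length, in CPM per kb of exon on a log axis, for the 6 genes and for other ligands, receptors and factors of the same systems. Mlana (121), Ednrb (54.5) and Edn3 (28.6) lead, and Mc1r (0.267) lies far below.

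Other parts of the same systems filled out this order. Ece1, the protease that activates endothelins, averaged 14.0 ± 1.33 CPM per kb, and the endothelin A receptor gene Ednra 3.31 ± 0.279 CPM per kb. Edn1, the endothelin of blood vessels, averaged 1.34 ± 0.230 CPM per kb, below Edn3 in every library. Edn2 exceeded 3 reads in 1 of 10 libraries. On the melanocortin side, the gene of the peptide precursor and the other receptor genes that were listed were low. Pomc, whose product yields the melanocortin peptides, was at 0.0228 to 0.165 CPM and exceeded 3 reads in 7 of 10 libraries. Mc5r was at 0.146 to 0.538 CPM in all libraries, Mc4r exceeded 3 reads in 5 and Mc3r in 1 of 10 libraries, and Mc2r was not among the listed genes.

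The comparison of fellow eyes asked whether the members differed between the right and left eye of an animal, the nearest the labels allow to an eye with a lens against one without. No member passed the test. By limma on log2(CPM + 0.230) with the animal as a block, 0 of 15414 genes passed a Benjamini-Hochberg adjusted p of 0.05 (0% called, smallest adjusted p = 0.9998), and 430 had an unadjusted p under 0.05 (2.79%), none of them a member. In all, 5 members entered this test. Mc1r, with a mean of 0.973 CPM over the 10 libraries, fell just under the filter of 1 CPM, with Kit (20.2 CPM) the lowest member above it, and its result comes from the same fit without the filter (26360 genes). Right and left eyes overlapped in all 6 members, as they did in all but 0.214% of tested genes. The right eye was higher in 5 of 5 animals for 0 of the 6 members (1.77% of all genes tested) and lower in 5 of 5 for 0 of the 6 (2.67% of all genes tested).

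Among the receptors, Kit lies on chromosome 5 (75574916 to 75656722, plus strand, GRCm38) and was read in at least 1211 implied reads per library. It was at 23.4, 18.5, 22.1, 17.1 and 18.3 CPM in the right eyes of animals 61, 64, 65, 66 and 68, against 21.8, 21.9, 21.3, 18.1 and 19.9 CPM in their left eyes. Animal 66 was lowest on both sides, and the right eye was the lower one in 3 of 5 animals. The right minus left difference was -0.06 ± 0.06 (log2, SE), with a 95% interval from -0.21 to 0.09 (0.866- to 1.07-fold) and an adjusted p of 0.9998 in limma.

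Ednrb (minus strand of chromosome 14, from 103814625 to 103844402) measured 248, 207, 249.6, 271 and 208 CPM in the right eyes of animals 61, 64, 65, 66 and 68, against 231, 233, 233, 215 and 229 CPM in their left eyes. The right eyes were spread widely (236 ± 28.1 CPM, SD, n = 5) and the left eyes narrowly (228 ± 7.29 CPM, SD, n = 5), with the widest fellow-eye ratio, 1.26, in animal 66. The difference was 0.04 ± 0.08 (log2, SE), with a 95% interval from -0.14 to 0.23 (adjusted p = 0.9998 in limma).

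Mc1r (chromosome 8, 123407107 to 123410744, plus strand, 1 annotated transcript) had the largest estimate of the 6 and the fewest reads, 51 to 127 implied reads per library. It was at 0.679, 1.30, 1.09, 1.07 and 1.35 CPM in the right eyes of animals 61, 64, 65, 66 and 68, against 0.771, 0.872, 0.860, 0.837 and 0.902 CPM in their left eyes. The right eye was higher in 4 of 5 animals, and animal 61 went the other way. The right minus left difference was 0.27 ± 0.16 (log2, SE), with a 95% interval from -0.10 to 0.65 (0.932- to 1.57-fold) and an unadjusted p of 0.131 (adjusted p = 0.9999) in limma without the filter. In animal 68 the exact Poisson 95% intervals were 1.12 to 1.60 CPM in the right eye and 0.721 to 1.12 CPM in the left eye. These cover counting error only and compare 2 libraries, not conditions. That right eye also held the highest rod sum, and the part of other tissue in this value was not tested. Mc1r lies inside the long gene model Gm20388 on the same strand (24.6 CPM on average). Tcf25 (108 CPM) ends 3.271 kb before it and Tubb3 (1.75 CPM) begins 0.679 kb after it, both on the same strand. Its counts are uncertain to the extent that reads of these transcripts were shared.

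**Figure D2:**
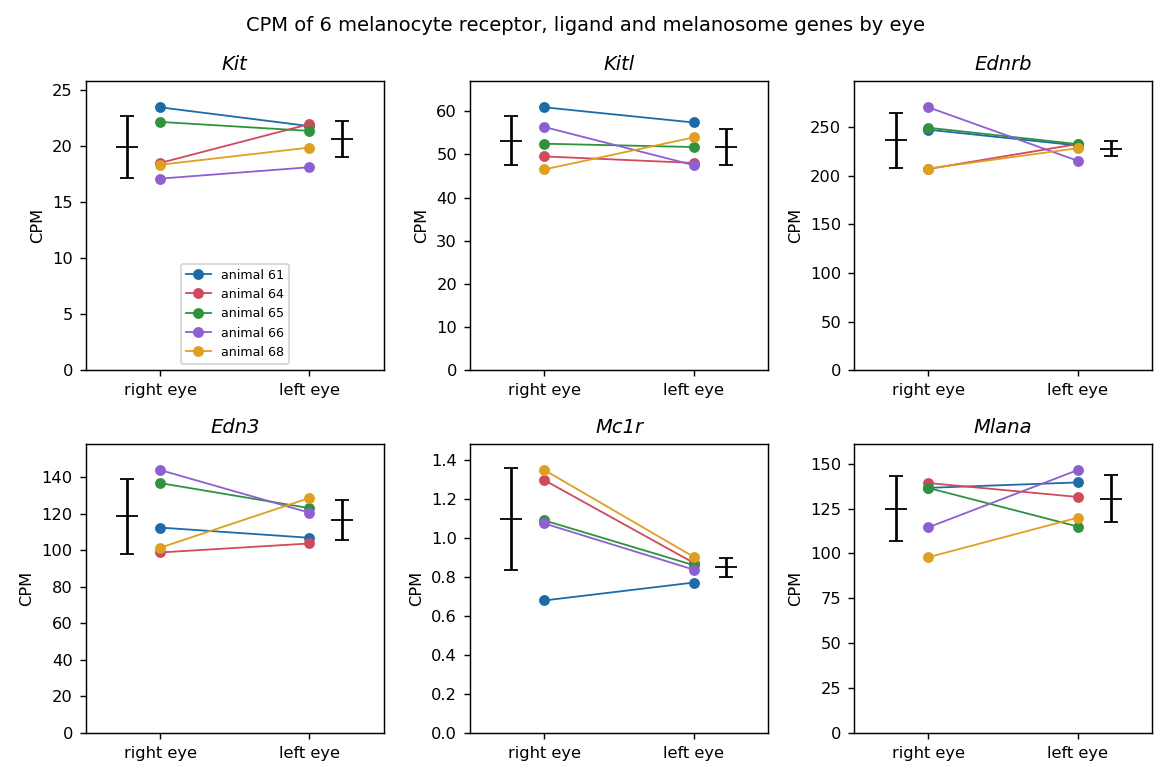
CPM (vertical axes from 0) of each of the 6 genes in the right and left eyes, with a coloured line joining the fellow eyes of an animal and black bars for the mean and SD (n = 5 each). Lines cross in every panel except that of Mc1r, where 4 of 5 run down to the left eye.

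Of the ligands, Kitl (chromosome 10, 100015630 to 100100416, plus strand) was at 60.9, 49.5, 52.5, 56.3 and 46.5 CPM in the right eyes of animals 61, 64, 65, 66 and 68, against 57.4, 48.0, 51.7, 47.5 and 53.9 CPM in their left eyes. Animal 61 was highest on both sides, and the right eye was higher in 4 of 5 animals, all but animal 68. The difference was 0.04 ± 0.07 (log2, SE), with a 95% interval from -0.12 to 0.19 (adjusted p = 0.9998 in limma).

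Edn3 (chromosome 2, 174760619 to 174784042, plus strand) was at 113, 98.9, 137, 144 and 101 CPM in the right eyes of animals 61, 64, 65, 66 and 68, against 107, 104, 123, 121 and 129 CPM in their left eyes. The right eyes held both the lowest and the highest library, and the widest fellow-eye ratio was 1.27 in animal 68. The difference was 0.01 ± 0.09 (log2, SE), with a 95% interval from -0.19 to 0.22 (adjusted p = 0.9998 in limma).

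Mlana (chromosome 19, 29697824 to 29708634, plus strand), whose product sits in early melanosomes with PMEL, was at 137, 139, 136, 115 and 97.9 CPM in the right eyes of animals 61, 64, 65, 66 and 68, against 139.6, 132, 115, 147 and 120.0 CPM in their left eyes. The right eye of animal 68 was the lowest of the 10 libraries, and the left eye of animal 66 the highest. The difference was -0.07 ± 0.09 (log2, SE), with a 95% interval from -0.29 to 0.15 (0.820- to 1.11-fold, adjusted p = 0.9998 in limma).

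**Figure D3:**
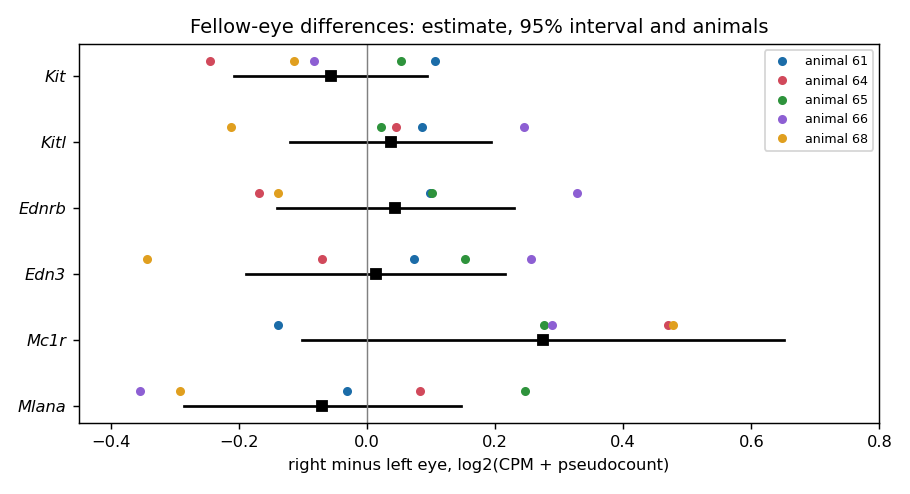
Right minus left differences in log2(CPM + 0.230): black squares are the limma estimates with 95% intervals, and coloured points above them are the single animals. All 6 intervals include 0, and that of Mc1r, from -0.10 to 0.65, is the widest.

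A further comparison asked whether animals differed by more than fellow eyes do. In limma's F test of the animal term, 13 of 15414 genes passed (0.0843% called), led by genes of the sex chromosomes, and no member was among them. Animal means spanned 9.02 for Xist and 7.69 for Ddx3y on the log2 scale, so animals of both sexes were included. The part of sex in this comparison was not tested. Kit came nearest, with an F of 3.97 (adjusted p = 0.689 in limma), and its animal means spanned 0.36 on the log2 scale. Edn3 spanned 0.38 (adjusted p = 0.722), Mlana 0.35 (0.767), Kitl 0.28 (0.753) and Ednrb 0.15 (0.870), all adjusted p from limma. Mc1r, in the fit without the filter, spanned 0.49 (adjusted p = 0.885 in limma). Single animals or libraries set several of these spans: without animal 61, that of Kitl was 0.0946 and that of Mc1r 0.18. The Mlana span was 0.14 without animal 68 and 0.20 without its right eye alone. The Ednrb span was 0.31 without the left eye of animal 66. With 1 eye left out, the value of that animal is its other eye alone. Such a span is not directly comparable with a span of means over both eyes. Unadjusted p under 0.05 were reached by 7.22% of tested genes and by 0 of the 5 members tested. Sequencing depth moved with the animal in 4 of 5 cases (for example 94.2 M implied reads in both eyes of animal 68, against 87.6 M in the right and 66.9 M in the left eye of animal 66), and its part was not tested.

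The spread of each member is given as the SD of the 5 animal means, each over both eyes, and the SD of single eyes within an animal, both in log2. Because the first is a spread of means and the second of single eyes, equal values of the pair do not mark an equal spread. Kit had 0.14 for animal means and 0.10 within animals, and Ednrb had 0.08 and 0.13. For Kitl these were 0.11 and 0.11, for Edn3 0.16 and 0.15, for Mlana 0.14 and 0.17 and for Mc1r 0.19 and 0.25, in the same order. Differences in spread between members were not tested. The medians over all 15414 genes were 0.11 for animal means and 0.14 within animals. The coefficient of variation over 10 libraries was 8.54% for Ednrb, 9.03% for Kitl, 10.6% for Kit, 11.9% for Mlana, 13.2% for Edn3 and 22.8% for Mc1r, against a median of 11.1% over all genes tested.

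**Figure D4:**
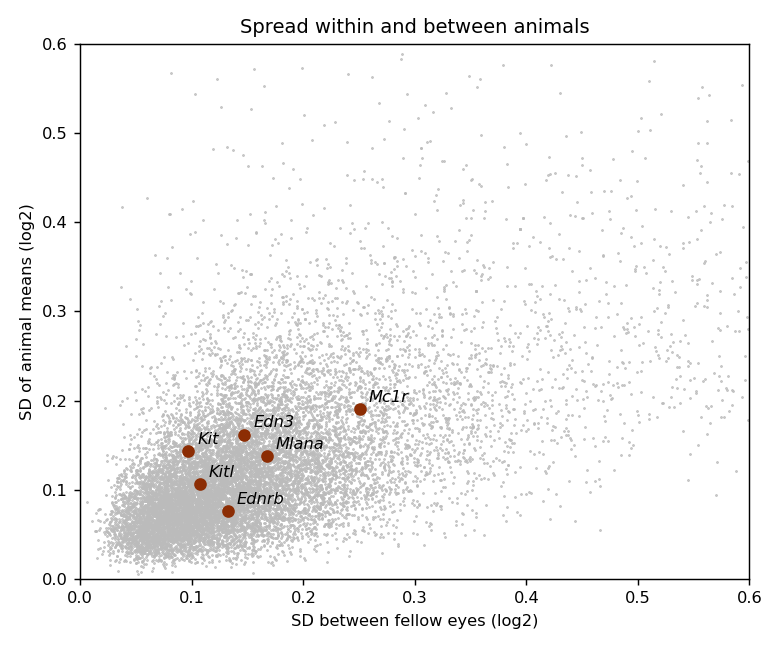
SD between fellow eyes (horizontal axis) against SD of the 5 animal means (vertical axis), both in log2, for all genes tested (grey; 703 genes lie beyond the axis limit of 0.6) and the 6 members. Kit has 0.14 for animal means and 0.10 between fellow eyes, and Ednrb has 0.08 and 0.13.

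Edn3 and Ednrb had fellow-eye differences of the same sign in 5 of 5 animals: the right eye was the higher one in animals 61, 65 and 66 and the lower one in animals 64 and 68. Their log2 differences in these 5 animals, in the order 61, 64, 65, 66 and 68, were 0.07, -0.07, 0.15, 0.26 and -0.34 for Edn3 and 0.10, -0.17, 0.10, 0.33 and -0.14 for Ednrb. Of the 16 lists, 4 had list means with the same 5 signs: 13 RPE genes, 16 endothelial genes, 13 smooth muscle and pericyte genes and 4 mast cell genes. These 4 mast cell genes were those past the filter (Gata2, Hpgds, Srgn and Il1rl1), without the mast cell proteases. The sum of all 14 mast cell markers did not keep these signs. It was lower in the right eye of animal 65 (32.4 against 32.5 CPM in the left) and of animal 66 (35.3 against 36.8 CPM). The means of 12 rod genes and of 9 inner retina genes had the sign opposite to that of Edn3 and Ednrb in each animal. The share of all genes tested with all 5 signs opposite to these lists was 8.72% for each. Trpm1, Prkca and Tfap2b of the inner retina genes are also in the pigment synthesis, endothelin and melanocyte factor lists. Among all genes tested, 8.71% shared all 5 signs with the RPE list, which are also the signs of Edn3 and Ednrb. The part of RPE, vessel, mast cell or retinal tissue in the Edn3 and Ednrb values was not tested. Some lists had estimates mostly on one side, against 46.0% of all genes with a positive right minus left estimate and a median of -0.01. The estimate was positive for 13 of 13 RPE genes (median 0.19), 15 of 16 endothelial genes (median 0.09), 3 of 15 skeletal muscle genes (median -0.26) and 0 of 12 surface epithelium genes (median -0.93), with 0 called in each.

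The fellow-eye difference of Mlana had the sign of the mean of 15 pigment synthesis and melanosome genes in 5 of 5 animals, as did 4.05% of all genes tested. Rods had the sign opposite to that of Mlana in 2 of 5 animals. Kit had the sign of the Schwann cell and myelin list in 5 of 5 animals, as did 6.06% of all genes tested. The sign of the RPE list was shared by Kitl in 4 of 5 animals, by Kit in 4 and by Mc1r and Mlana in 2. Mc1r had the sign opposite to that of the surface epithelium list (cornea and conjunctiva) in 5 of 5 animals, as did 1.26% of all genes tested. Of all 96 pairs of a member and a list, 10 had the same sign in 5 of 5 animals and 5 had opposite signs in 5 of 5. These pairs are not separate results. Most of them repeat the single sign pattern of Edn3 and Ednrb, over 4 lists with identical signs and 2 lists with the reverse. The others are the pairs of Mlana, Kit and Mc1r given above. Per list, 2.10% to 8.71% of all genes tested had the same 5 signs, and 1.25% to 8.72% had the opposite 5.

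**Figure D5:**
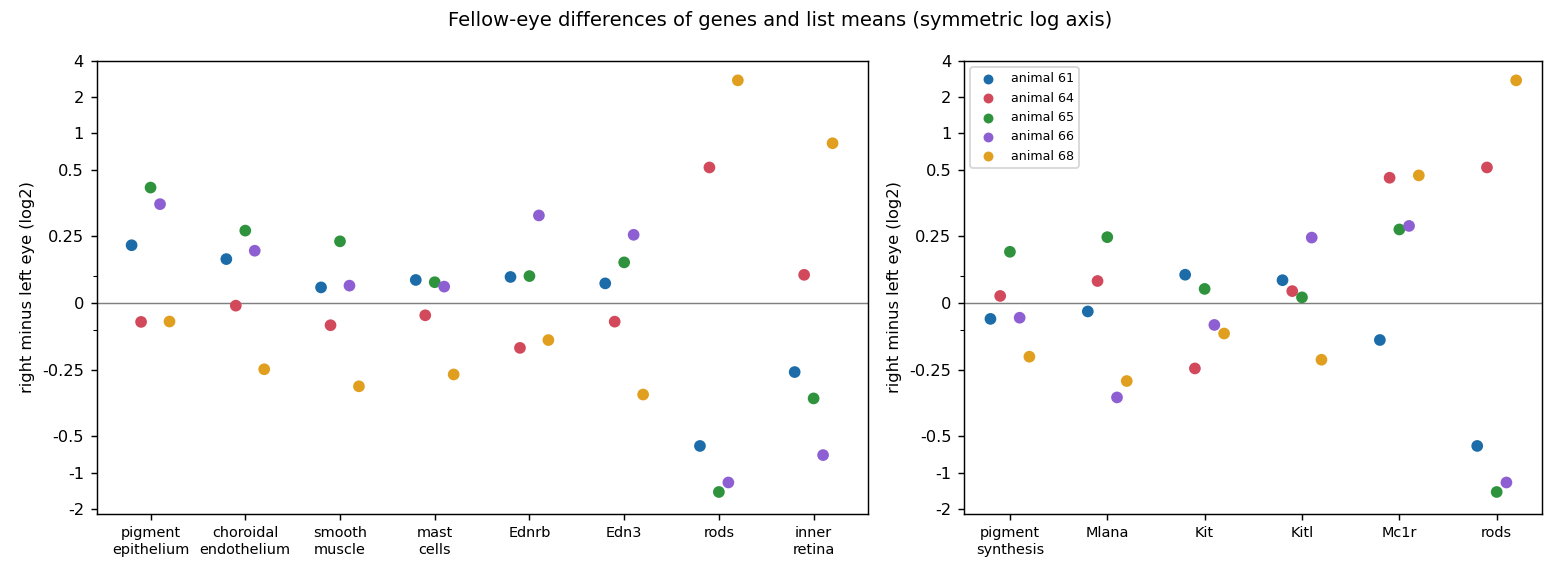
Right minus left difference in log2 in each of the 5 animals (coloured points) for genes and for means of marker lists, on a symmetric log axis. Edn3 and Ednrb have the signs of the RPE, endothelial, smooth muscle and mast cell list means in 5 of 5 animals. The mast cell mean covers the 4 markers past the filter. Both genes have the reverse of the signs of rods and inner retina in 5 of 5 animals, and Mlana has the signs of pigment synthesis genes.

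Over the 10 libraries, the genes whose log2 values were most like those of a member were listed by Pearson's r, out of the 15414 genes tested. Libraries share animals, depth and tissue make-up, and these genes were picked for their r, so the values are descriptions. Mlana was closest to Bdh2 (r = 0.97), Dct, the dopachrome tautomerase of melanin synthesis (r = 0.96), and Acot6 (r = 0.96). For Ednrb these were Akap12 (r = 0.97), Mapk6 (r = 0.96) and Eif4g3 (r = 0.95), and for Edn3 they were Nipa1 (r = 0.94), Zbtb20 (r = 0.92) and Abitram (r = 0.91). Kitl was closest to Itga1, an integrin chain that binds collagen (r = 0.95), St3gal6 (r = 0.94) and Kctd12b (r = 0.94). Kit was closest to Paxip1 (r = 0.91), Psmb9 (r = 0.91) and Cldn34c1 (r = 0.90), and Mc1r to Csmd1 (r = 0.87), Smyd5 (r = 0.86) and Mtfp1 (r = 0.85). Between members, r was 0.73 for Edn3 and Ednrb, 0.69 for Kitl and Ednrb, 0.42 for Kit and Kitl and -0.62 for Kit and Mc1r.

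Kit is also a defining receptor of mast cells, and Ednrb is also made by glia and vessel cells. Of 14 mast cell markers, all 14 were listed, and their summed level was 28.8 to 43.9 CPM in right eyes and 32.5 to 41.5 CPM in left eyes, mostly from Srgn and Hpgds, which other leukocytes also express. The mast cell proteases Cpa3 (0.212 to 1.60 CPM), Cma1 (0.227 to 1.46 CPM) and Mcpt4 (0.393 to 1.78 CPM), named after their values were seen, were detected in 10 of 10 libraries, while Fcer1a and Mrgprb2 were listed at 0 in some. The 14 markers of Müller glia and astrocytes were all listed, with a sum of 3266 to 4097 CPM in right eyes and 3313 to 3846 CPM in left eyes, led by Apoe and Glul, which other tissues also express. Rlbp1, Sox9 and S100b of these markers are also in the RPE, melanocyte factor and Schwann cell lists. Pax2 was listed at 0 in some libraries. The shares of Kit and Ednrb that came from these cells were not tested.

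Genes that act with the receptors likewise showed no call between eyes (0% of all genes). Of 37 KIT signalling genes 35 were tested, with 19 estimates higher and 16 lower in the right eye, 0 called and a median of 0.00. In the endothelin system 16 of 19 were tested, with 9 higher and 7 lower, 0 called and a median of 0.01. The melanocortin pathway had 15 tested of 23 listed genes, 7 higher and 8 lower, with 0 called and a median of -0.00392. Among the melanocyte lineage factors 12 of 13 were tested, 6 higher and 6 lower, with 0 called and a median of 0.00, and of 15 pigment synthesis genes 8 were higher and 7 lower, with 0 called and a median of 0.02. The animal test called 0 genes of these 5 lists as well. Its lowest adjusted p in these lists was that of Mitf (adjusted p = 0.359 in limma), which was at 105 ± 25.6 CPM in right and 101 ± 16.5 CPM in left eyes (SD, n = 5 each).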

How the data were processed

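RNA of 10 libraries was analysed from the authors' deposited table of CPM (reads scaled to a fixed library total), to which an offset of 1e-04 had been added and was subtracted here. Per the labels' protocols, a stranded total RNA kit with ribosomal RNA depletion was used, and the extraction text speaks of retinae. Per the submitters' processing notes, STAR, Partek and GRCm38 (mm10) were used, with versions, annotation release and strand use not given in the sources used here. Low values were whole multiples of a step (tolerance 0.05) for 88.7% to 89.7% of genes per library, which gave implied depths but not whole reads for every gene. No library was a copy of another: the ratio of chi-square to its degrees of freedom was 11.5 to 59.2 over 45 pairs.

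Values were tested as log2(CPM + 0.230), equal to 0.5 once the listed genes alone are scaled to that total, which understates changes of low genes. The filter was a mean of 1 CPM or more, and genes past it entered limma 3.58.1 (R 4.3.3, intensity trend, 4 residual degrees of freedom), with terms for animal and eye side and Benjamini-Hochberg adjustment over all genes. The same fit gave the F test of the animal term. Fellow eyes come from the same animal, so the animal was a block. The deviations of fellow eyes correlated at -0.19 to 0.27. Lengths and names came from GENCODE M21, whose starts equalled the deposited ones for 99.4% of 25737 matched genes. Printed ends are the deposited stop minus 1. The script was tested on simulated data. Named genes were the members, the 3 tested genes most like each, ligands and receptors of the same systems, and the 2 highest members of a list. Mitf is named as part of this rule. The members and the 16 lists (256 genes, 255 of them in the table) were chosen with earlier results of these data known. Figures used matplotlib 3.10.9.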

Additional observations from a re-analysis of the deposited data

Results flagged for a closer look

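In 1 of 12 sets of 5 eyes (6 genes, each side), a library stood apart from the others by its gap to the nearest one. This was Ednrb in the left eye of animal 66, at 215 CPM, where the other left eyes lay between 229 and 233 CPM. The gap was 0.755 of the range of the 5 left eyes, against a limit of 0.71. Chance gives such a gap in about 1 in 20 sets. The right eye of the same animal held the highest Ednrb value of all, 271 CPM.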

How the results depend on the processing

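No member was called by limma in any of 326 combinations of member, test and setting. Without the replicate block, and in every other setting, 0 genes were called between eyes (434 with an unadjusted p under 0.05 without the block, 266 to 861 over the settings that kept all libraries). With all libraries kept, no member's right minus left estimate changed sign. Leaving out an animal, or 1 of its eyes (which gives the same estimate under the block), moved it between -0.10 and -0.01 for Kit, -0.0154 and 0.10 for Kitl, -0.0271 and 0.10 for Ednrb, -0.0468 and 0.10 for Edn3, -0.15 and 0.00131 for Mlana and 0.22 and 0.38 for Mc1r. The sign turned without animal 66 for Kitl, Ednrb, Edn3 and Mlana, and for Edn3 also without animal 61 (-0.00128) or 65 (-0.0210). The 13 genes called between animals became 25 without the eye term, 20 with array weights and 5 (without animal 61) to 10 (without animal 65) with an animal or library left out. The cause was not tested. Levels in CPM per kb were 3.86 for Kit, 37.8 for Edn3 and 141 for Mlana with the longest transcript, and 57.2 for Kit, 141 for Kitl, 87.0 for Ednrb, 161 for Edn3 and 173 for Mlana with the shortest, since the shorter length divides the same value. By Spearman's rho, 1 of the 3 genes most like each of Kit, Ednrb, Edn3 and Mlana was shared with the choice by Pearson's r, and 2 each for Kitl and Mc1r. At 51 to 127 implied reads, counting error limits Mc1r, and the other members rest on 1211 reads or more in every library.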
